A study of Mus musculus with 6 samples.

Results

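The genes described here are those of glycolysis and of the cell's response to low oxygen, measured in dissected heads of mouse embryos. The list holds 32 genes, named by pathway. A gene was taken where at least 1 probe set of the array was annotated to that gene alone, and its brightest probe set over all heads was read, however dim. This gave 29 of the 32 genes, out of 19938 genes read in the same way. Gapdh, Gpi1 and Eno1 had no such probe set and were not analysed here. All 25 probe sets annotated to Gapdh also carried the symbols of its copies elsewhere in the genome. The 29 genes comprise 2 transcription factors, 12 glycolytic enzymes of 15 listed, and 15 other targets of hypoxia-inducible factor (HIF).

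The samples were 3 heads labelled Tasp1 KO (Taspase1 knock-out, Tasp1-/-) and 3 labelled wild type (WT), all at embryonic day E10.5 and on a C57Bl6 background. Both kinds came from crosses between Tasp1+/- parents, so the knockout was, by this design, not restricted to a tissue. Taspase1, the product of Tasp1, is a protease whose substrates include the MLL histone methyltransferases and other nuclear proteins. Only the forebrain and midbrain vesicles with the tissue around them were kept, and each head was read on 1 array from 100 ng of RNA. The question behind the comparison was how loss of Taspase1 changes gene expression in the head. Values are the deposited log2 signals, and every difference is that of the KO-labelled mean minus the WT-labelled mean on this scale.

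Glycolysis splits glucose into pyruvate through a fixed chain of enzymes, and lactate dehydrogenase then turns pyruvate into lactate when respiration is limited. In the presence of oxygen, prolyl hydroxylases of the EGLN family mark the HIF alpha subunits for destruction. When oxygen is short, the stabilised subunits pair with ARNT and switch on genes of glucose uptake, glycolysis, blood vessel growth and pH control. The early embryo grows in low oxygen, and its neuroepithelium depends strongly on glycolysis before blood vessels have spread through it.

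Several libraries need a remark before the results. The Tasp1 probe set, 10488090, read 8.63, 8.63 and 8.50 in the KO-labelled heads, against 8.10, 8.45 and 8.49 in the WT-labelled heads. It was thus not lower in the KO-labelled heads, and since its place within Tasp1 is unknown here, it does not check the labels, which are quoted as given. WT 2 had an Xist signal of 12.3, where the other 5 heads lay between 4.90 and 5.24, and the Y-linked Kdm5d, Uty and Eif2s3y were lowest there, which is the pattern of a female among males. WT 1 lay at 14.8 on the first principal component over all genes, and the other heads lay between −10.1 and 6.55. All 7 measured markers of forebrain and midbrain (Otx2, Six3, Lhx2, Emx2, Pax6, En1 and Lmx1b) were brighter than the 40% dimmest probe sets, a cut at a log2 signal of 7.06, and of the 4 hindbrain markers only Gbx2 was. In the fit over all genes (limma), 2 genes passed an adjusted p of 0.05, and these were Caprin2 and the microRNA gene Mir9-1.

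No difference between the KO-labelled and WT-labelled heads was detected for these genes with this number of arrays. Of the 29 genes, 0 passed an adjusted p of 0.05 in limma, where 0.01% of all genes did. At an unadjusted p under 0.05 there was 1, Pgk1, where 6.28% of all genes stood. Means were lower in KO-labelled heads for 16 of the 29 and higher for 13, at a median difference of −0.0081, beside −0.013 over all genes. Of all 19938 genes, 11402 had a lower mean and 8536 a higher one. The ratio of signals, KO-labelled over WT-labelled, ran from 0.88 for Aldoc to 1.10 for Pdk1, and 25 of the 29 genes differed by at most 0.1 in either direction. The 95% confidence interval of the ratio lay within 1.2-fold either way for 25 of the 29 genes, as it did for 70.2% of all genes. Over the 29 intervals, the lowest bound was 0.76 (Aldoc) and the highest 1.26 (Pdk1). In whole tissue, fewer cells that express a gene and less RNA in each such cell cannot be told apart.

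**Figure D1:**
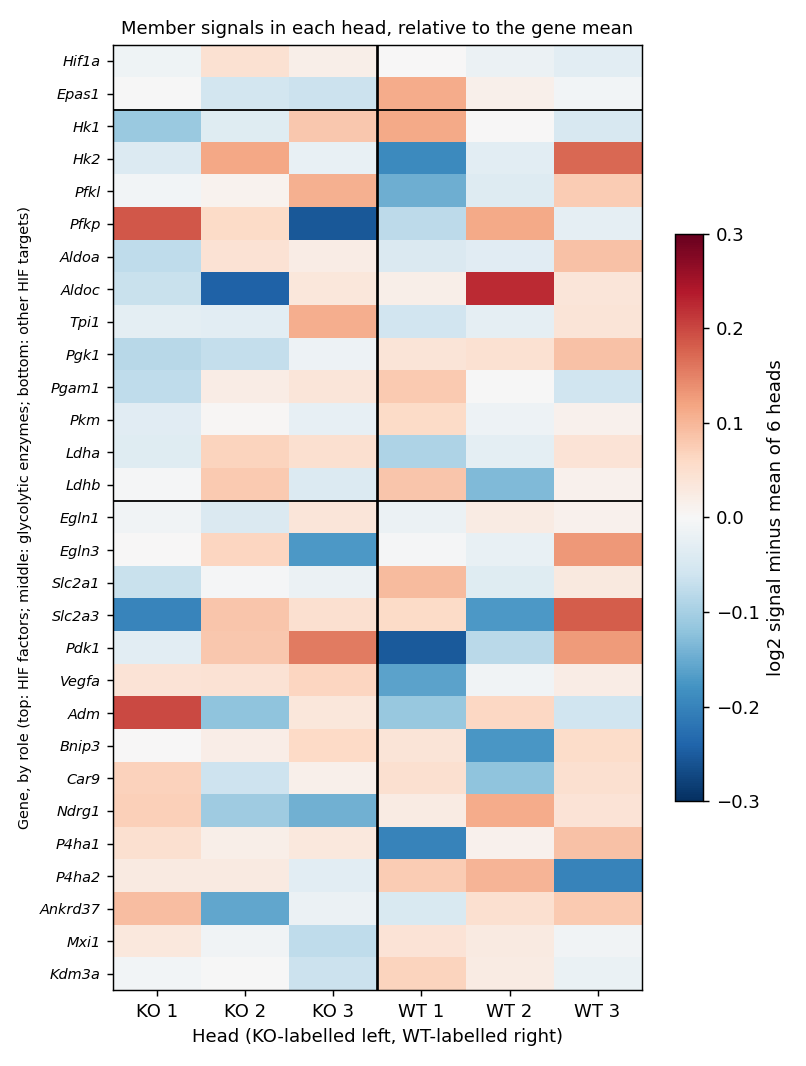
Log2 signal of each of the 29 genes (rows, by role) in each head (columns, KO-labelled left of WT-labelled), as the difference from that gene's mean over the 6 heads; red is higher and blue lower, on a scale from −0.3 to 0.3. Neither block of columns has one colour throughout, and Pgk1 is the row in which all 3 KO-labelled heads lie below all 3 WT-labelled heads.

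The recognition site of HIF, the hypoxia response element, has a core of the letters ACGTG or GCGTG. Promoter sequences from RefSeq (GRCm38.p6) matched 29 of the 32 listed genes, with 43 start sites, and the 250 bases before each start were searched for both cores on both strands. These are not the same 29 genes as those measured. They include Gapdh, Gpi1 and Eno1 and lack Epas1, Slc2a3 and Ndrg1. ACGTG also lies within CACGTG, the site of MYC and related factors, which counts as a match on both strands. At least 1 match was found in 33 of the 43 windows (76.7%), beside 38.6% of all 32851 windows. The motifs contain CG, and the windows of the listed genes were richer in G and C, with a median of 61.6% against 52.4% over all windows. Among windows of at least 60% G and C, 21 of 23 held a match for the listed genes (91.3%), beside 63.8% of all such windows. A match shows letters and not a site in use.

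Windows of 2 glycolytic genes and 2 other targets are shown, since they set the gene with the smallest p of the 29 (Pgk1) beside genes closer to 0 that carry the same letters (Ldha, Slc2a1 and Bnip3). Each runs 5′ to 3′ and ends 1 base before the start, with the matches in capitals. Pgk1 (chrX:106186850-106187099, plus strand) held 2 matches, beginning at −150 and −131 from the start. Ldha (chr7:46845554-46845803, plus strand) held 5, among them both strands of CACGTG in 2 places. Slc2a1 (chr4:119108495-119108744, plus strand) held 2, at −61 and −36. Bnip3 (chr7:138909507-138909756, minus strand) held 5, from −117 to −35.
Pgk1: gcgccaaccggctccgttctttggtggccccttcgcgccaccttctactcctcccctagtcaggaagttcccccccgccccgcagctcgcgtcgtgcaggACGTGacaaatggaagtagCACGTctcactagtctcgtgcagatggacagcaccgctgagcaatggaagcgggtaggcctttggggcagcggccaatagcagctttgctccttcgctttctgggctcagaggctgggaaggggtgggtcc
Ldha: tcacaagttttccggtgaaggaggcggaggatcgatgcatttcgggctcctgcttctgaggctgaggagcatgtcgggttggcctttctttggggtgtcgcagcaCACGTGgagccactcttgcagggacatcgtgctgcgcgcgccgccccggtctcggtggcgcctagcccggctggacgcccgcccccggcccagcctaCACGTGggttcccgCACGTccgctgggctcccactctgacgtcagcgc
Slc2a1: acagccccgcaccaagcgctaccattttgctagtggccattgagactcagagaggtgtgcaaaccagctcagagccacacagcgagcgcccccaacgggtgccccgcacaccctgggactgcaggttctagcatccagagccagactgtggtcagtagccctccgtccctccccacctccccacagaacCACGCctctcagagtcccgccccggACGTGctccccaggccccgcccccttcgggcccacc
Bnip3: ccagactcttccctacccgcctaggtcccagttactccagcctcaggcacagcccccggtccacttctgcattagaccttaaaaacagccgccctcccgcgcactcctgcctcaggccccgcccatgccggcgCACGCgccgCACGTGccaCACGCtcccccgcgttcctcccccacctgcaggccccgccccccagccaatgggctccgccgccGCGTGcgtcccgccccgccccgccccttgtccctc

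Both listed genes of HIF alpha subunits, Hif1a and Epas1, were measured well above the dimmest probe sets. Hif1a, which encodes the subunit found in most cells, read 11.53, 11.59 and 11.56 in KO-labelled heads, against 11.54, 11.53 and 11.51 in WT-labelled heads. The ranges overlapped, and the difference of +0.03 did not pass (SE 0.038, limma adjusted p = 0.930). Since HIF1α is controlled mainly through the stability of the protein, its transcript level does not report its activity. Epas1, which encodes HIF2α, the subunit prominent in endothelium, read 8.76, 8.71 and 8.70 in KO-labelled heads, against 8.87, 8.78 and 8.75 in WT-labelled heads. KO 1 lay between WT 2 and WT 3, so the groups overlapped (difference −0.08, SE 0.061, adjusted p = 0.885). Beside it, the 6 endothelial markers differed by −0.009 to 0.073, and their mean signal per head lay between 9.35 and 9.41 in KO-labelled heads and between 9.32 and 9.42 in WT-labelled heads. The log2 ratio of Hif1a to Epas1, taken relative to its mean over the heads, was −0.011, 0.10 and 0.080 in KO-labelled heads, against −0.11, −0.034 and −0.025 in WT-labelled heads. The lowest KO-labelled head thus lay above the highest WT-labelled head for this ratio, by 1.08-fold on average, with an exact two-sided permutation p of 0.1, the smallest that 3 against 3 heads can give.

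Among the glycolytic enzymes, Pgk1 alone had groups that did not overlap in its lower direction, where 6.99% of all genes were lower without overlap and 4.12% were lower at an unadjusted p under 0.05. Pgk1, on the X chromosome, encodes phosphoglycerate kinase, which makes the first ATP of the pathway. It read 11.88, 11.89 and 11.94 in KO-labelled heads, against 12.00, 12.01 and 12.05 in WT-labelled heads. The mean was 11.90 ± 0.04 for KO-labelled heads, against 12.02 ± 0.03 for WT-labelled heads (SD, n = 3 each), and the ratio was 0.92 with a 95% interval from 0.87 to 0.98. The difference of −0.11 (SE 0.037) had an unadjusted p of 0.011 and an adjusted p of 0.651 in limma, so it did not pass over all genes. The array holds 3 probe sets annotated to Pgk1 alone, of which a pair carried the same values and the third differed by −0.11 too, and all 3 were annotated to the same records, so these are not separate measurements. Pgk1 has processed copies elsewhere in the genome, and whether they add to its signal was not tested. Without WT 2, the head with the female pattern, the Pgk1 difference was −0.12.

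**Figure D2:**
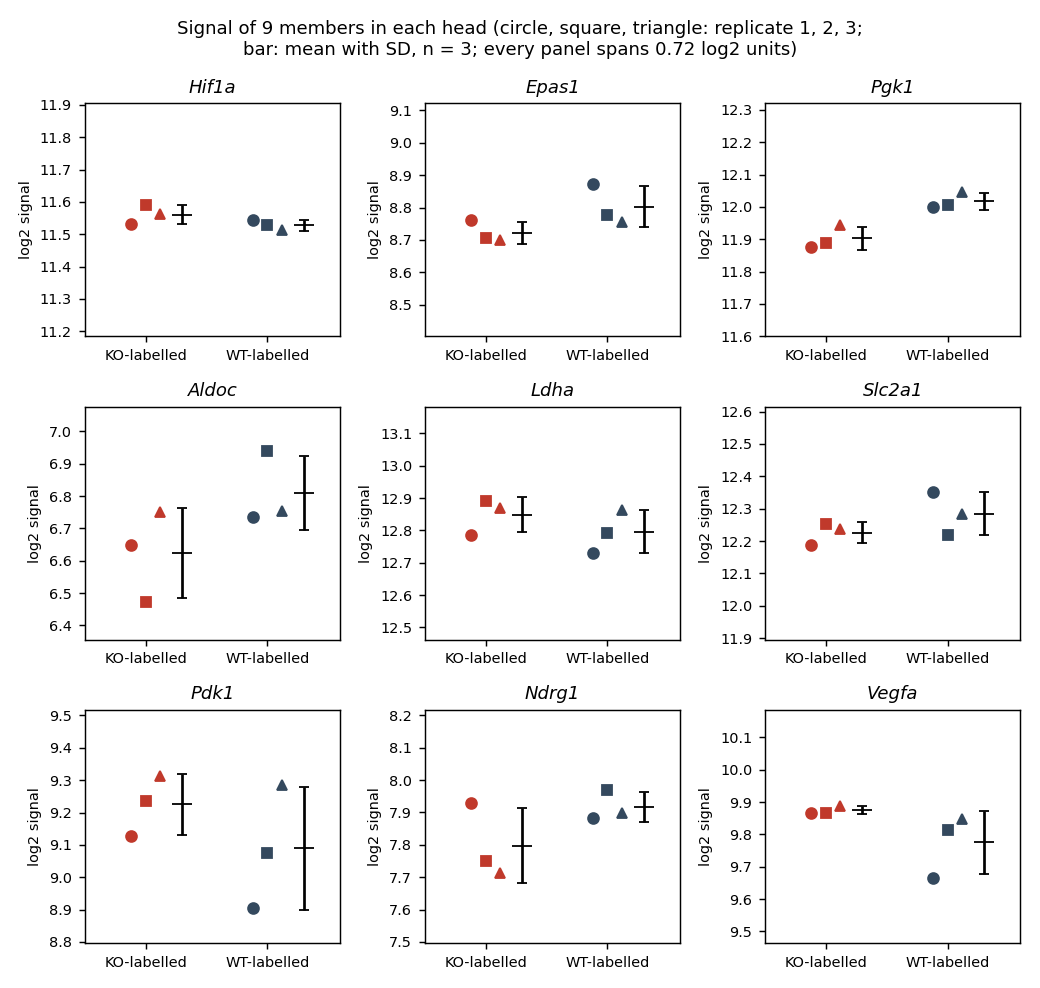
Log2 signal of 9 genes in each head, KO-labelled (red) left of WT-labelled (dark), with circle, square and triangle for replicates 1, 2 and 3, and the mean with SD (n = 3) beside the points; panels share 1 height on the log2 scale. The groups are apart for Pgk1 (KO-labelled lower) and Vegfa (KO-labelled higher) and overlap in the other 7 panels.

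The enzymes that take up and split glucose differed little. The hexokinase genes Hk1 and Hk2, whose products phosphorylate glucose on entry, differed by −0.04 and +0.03. The brightest probe set of Hk1 averaged 12.65 ± 0.10 over KO-labelled heads, against 12.70 ± 0.08 over WT-labelled heads (SD, n = 3 each). The other one annotated to Hk1 alone was far dimmer, with a mean of 8.42 over all heads, and differed by −0.05. A further 16 probe sets carried the symbol Hk1 beside other symbols and were not used. The level of Hk1 is thus uncertain, while the difference is small on both probe sets annotated to it alone. Pfkl and Pfkp, subunits of phosphofructokinase, the main control point of the pathway, differed by +0.07 and −0.0059. Aldoa, the widely expressed aldolase, differed by −0.0081. Aldoc, the brain aldolase, had the largest difference of the 29 genes and was among the 3 genes below the brightness cut, with Car9 and Adm. It read 6.65, 6.47 and 6.75 in KO-labelled heads, against 6.73, 6.94 and 6.75 in WT-labelled heads. KO 2 was the lowest and WT 2 the highest head, and KO 3 lay within the WT-labelled range (difference −0.19, SE 0.093, limma adjusted p = 0.822). Without KO 2 the Aldoc difference was −0.11, and without WT 2 it was −0.12.

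The remaining enzymes, which act after the splitting of the sugar, lay close to 0. Tpi1, triosephosphate isomerase, differed by +0.03, Pgam1, phosphoglycerate mutase, by −0.01, and Pkm, the pyruvate kinase gene, by −0.04. Ldha, which encodes the lactate dehydrogenase subunit that favours lactate production, read 12.79, 12.89 and 12.87 in KO-labelled heads, against 12.73, 12.79 and 12.86 in WT-labelled heads. The groups overlapped at +0.05 (SE 0.042, limma adjusted p = 0.891), with an interval of the ratio from 0.97 to 1.11. Ldhb, which encodes the subunit that favours lactate use, differed by +0.02 on its brighter probe set and by −0.08 on the other. The Pgam1 and Pkm genes also had further probe sets annotated to them alone, which differed by +0.02 and −0.0002. Higher means were thus found for 5 of the 12 enzymes and lower means for 7 (median −0.0070).

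Among the other HIF targets, the glucose transporters and the switches of pyruvate use showed no common direction. Slc2a1, the GLUT1 transporter, read 12.19, 12.25 and 12.24 in KO-labelled heads, against 12.35, 12.22 and 12.28 in WT-labelled heads. WT 2 lay within the KO-labelled range, and the difference was −0.06 (SE 0.041, limma adjusted p = 0.879). Slc2a3, the high-affinity GLUT3 transporter of neurons, differed by −0.04, with an SD of 0.15 over KO-labelled and 0.18 over WT-labelled heads, so that the heads of each group spread more widely than the groups differed. Pdk1, the kinase that shuts off pyruvate dehydrogenase, read 9.13, 9.24 and 9.31 in KO-labelled heads, against 8.91, 9.08 and 9.29 in WT-labelled heads. All 3 KO-labelled heads lay above WT 1 and WT 2, and 2 of them lay below WT 3 (difference +0.14, SE 0.091, limma adjusted p = 0.872). Pdk1 shares chromosome 2 with Tasp1 (assembly GRCm38.p6), and whether this bears on its values was not tested. Without WT 1 the Pdk1 difference was +0.04, and without WT 3 it was +0.23.

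Vegfa, the main growth factor of blood vessels, was the one gene of the 29 whose 3 KO-labelled heads all lay above the WT-labelled range, as 4.07% of all genes did. Counting both directions, 2 of the 29 genes had groups that did not overlap, where 11.1% of all genes did. Vegfa read 9.87, 9.87 and 9.89 in KO-labelled heads, against 9.67, 9.82 and 9.85 in WT-labelled heads. The difference of +0.10 (SE 0.058) did not pass in limma (adjusted p = 0.862), and its ratio had an interval from 0.98 to 1.17. Without WT 1, the lowest head, the Vegfa difference was +0.04. Adm, the vasodilator adrenomedullin, was dim and differed by +0.07. Bnip3, a mitophagy receptor, differed by +0.05 on its brighter probe set and by +0.04 on the other. Car9, a carbonic anhydrase of pH control, differed by +0.01 and was dim in both groups.

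Of the targets that feed back on HIF or serve other roles, Ndrg1 differed most and the others by less than 0.1. Egln1 and Egln3, prolyl hydroxylases that both mark HIF for destruction and are induced by it, differed by −0.01 and −0.07. P4ha1 and P4ha2, collagen prolyl hydroxylase subunits, differed by +0.07 and +0.02. The SD of P4ha1 was 0.015 over KO-labelled and 0.15 over WT-labelled heads, with WT 1 lowest at 9.51 and WT 3 highest at 9.80. Ndrg1, a stress-response gene of differentiation, read 7.93, 7.75 and 7.71 in KO-labelled heads, against 7.88, 7.97 and 7.90 in WT-labelled heads. KO 1 lay within the WT-labelled range, and the difference was −0.12 (SE 0.076, limma adjusted p = 0.869). With a head left out, the Ndrg1 difference ran from −0.18 (without KO 1) to −0.077. Kdm3a, a histone H3K9 demethylase, differed by −0.05, Mxi1, an antagonist of MYC, by −0.04, and Ankrd37 by −0.05. Higher means were found for 7 of the 15 targets and lower means for 8 (median −0.012).

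**Figure D3:**
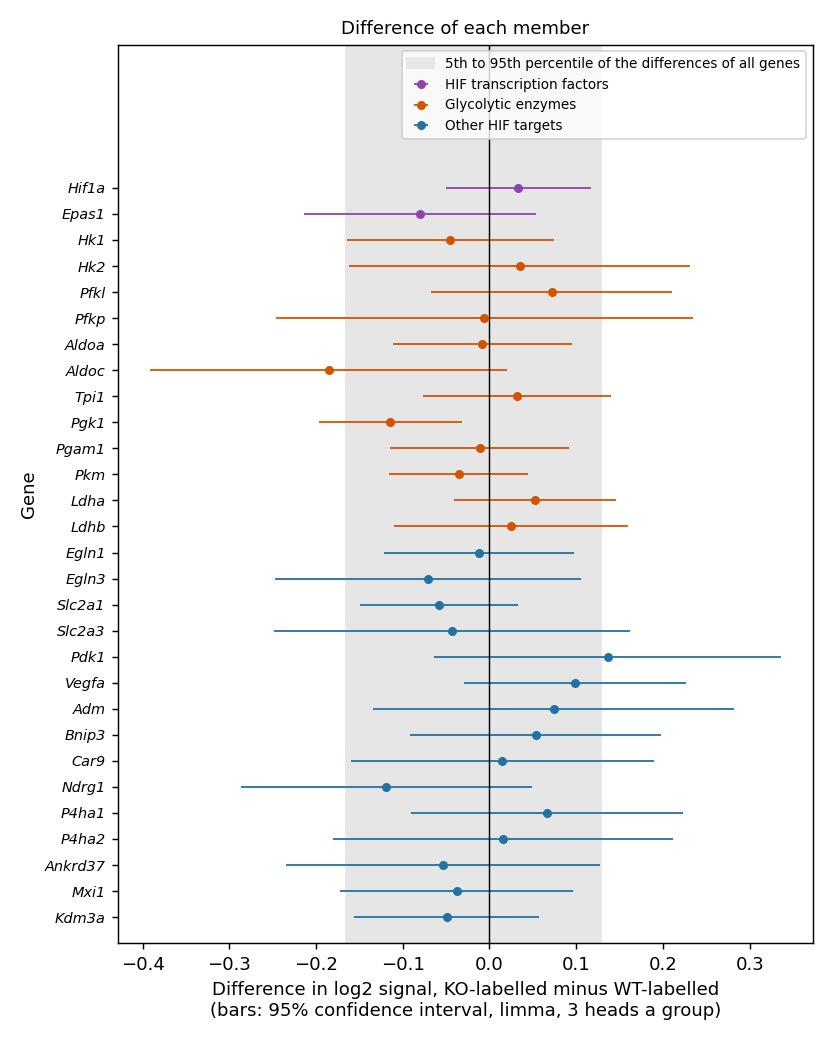
Difference in log2 signal, KO-labelled minus WT-labelled, of each of the 29 genes with its 95% confidence interval (limma, n = 3 each), coloured by role; the grey band runs from the 5th to the 95th percentile of the differences of all genes, −0.17 to 0.13. Every interval except that of Pgk1 includes 0.

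The glycolytic enzymes and the other HIF targets did not part from each other. Their median differences of −0.0070 and −0.012 were 0.0053 apart. For each head, the mean deviation of the enzymes minus that of the other targets was −0.049, 0.012 and 0.012 in KO-labelled heads, against 0.0046, 0.019 and 0.0010 in WT-labelled heads. KO 1 was lowest and WT 2 highest, and the groups overlapped. The median SD within groups was 0.079 for the enzymes and 0.092 for the other targets, beside 0.085 over all genes, so most differences were smaller than the spread between heads. WT 1 was the lowest head for 7 of the 29 genes (Hk2, Pfkl, Tpi1, Ldha, Pdk1, Vegfa and P4ha1) and the highest for 8, which is 24.1% and 27.6% of them, beside 18.8% and 26.7% of all genes. Among the 12 enzymes, KO 1 was the lowest head for 5 and WT 3 for 0, beside 14.9% and 14.0% of all genes.

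**Figure D4:**
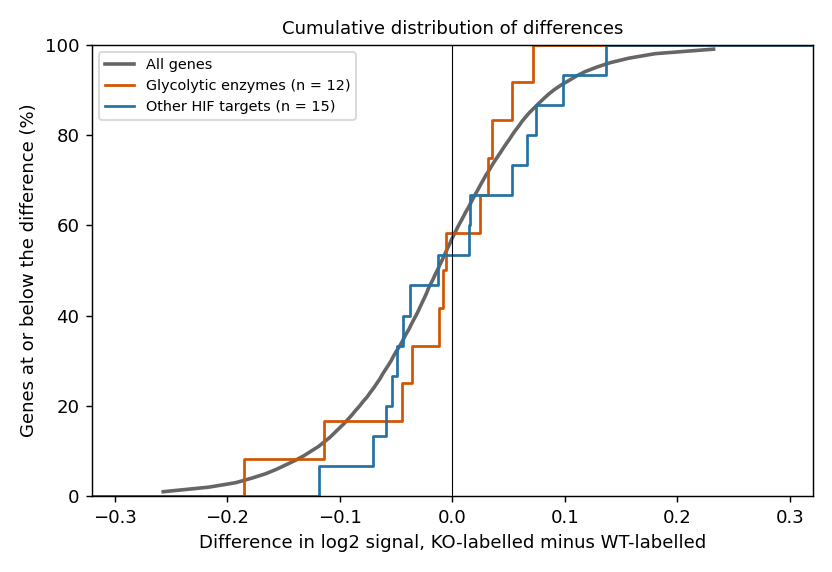
Share of genes (percent) at or below each difference in log2 signal, KO-labelled minus WT-labelled, for the 12 glycolytic enzymes, the 15 other HIF targets and all genes (1st to 99th percentile). The step lines of both lists follow the curve of all genes, with medians of −0.0070, −0.012 and −0.013.

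Isozymes and paralogs within the list can be exchanged for one another by cell state, so 8 pairs were compared as log2 ratios within each head. Besides Hif1a to Epas1, the ratios were Slc2a1 to Slc2a3, Hk1 to Hk2, Pfkl to Pfkp, Aldoa to Aldoc, Ldha to Ldhb, Egln1 to Egln3 and P4ha1 to P4ha2. The groups overlapped in all 7 of these. The change in ratio, KO-labelled over WT-labelled, ran from 0.95-fold (Hk1 to Hk2) to 1.13-fold (Aldoa to Aldoc), with exact two-sided permutation p-values of 0.4 to 0.9. Adjusted over the 8 pairs, the smallest permutation p was 0.8, for Hif1a to Epas1, and no pair could have passed with 3 against 3 heads.

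A wider list of 83 genes of the same pathways gave 77 with a probe set of their own, of which 34 were higher and 43 lower, and 0 passed an adjusted p of 0.05 in limma. Of the 10 genes of oxygen sensing, 4 were higher and 6 lower, all between −0.08 and 0.04. These include Arnt (−0.0075), the partner of the HIF alpha subunits, Vhl (−0.03), which recognises hydroxylated HIF, and Hif1an (−0.02), which blocks its coactivators. Egln2, the third prolyl hydroxylase, was the only 1 of these 10 genes with groups that did not overlap, at −0.08 (limma adjusted p = 0.867). Over all genes, 6.99% were lower without overlap. Of 32 further genes of fuel use, 11 were higher and 21 lower (median −0.02), and of 35 further HIF targets 19 were higher and 16 lower (median +0.01). At an unadjusted p under 0.05 there were 4 higher genes of the 77, where 2.16% of all genes stood, and 4 lower genes, where 4.12% of all genes stood.

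The higher genes of that wider list came from different branches. Rpia, ribose phosphate isomerase of the pentose phosphate pathway, read 8.83, 8.91 and 8.63 in KO-labelled heads, against 8.55, 8.47 and 8.59 in WT-labelled heads, a ratio of 1.19. Plod2, a collagen lysyl hydroxylase, was at 1.13 times, Dlat, the acetyltransferase subunit of the pyruvate dehydrogenase complex, at 1.12 times, and Tfrc, the transferrin receptor, at 1.10 times. In all 4 the KO-labelled heads lay wholly above the WT-labelled range, and the adjusted p-values (limma) were 0.650 to 0.715. Genes picked by p from these values tend to have groups apart, so this adds no support, here or for the lower genes. Of all 77 genes of that list, 12 had groups that did not overlap, beside 11.1% of all genes.

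The lower genes were Gpd2, the mitochondrial glycerol phosphate dehydrogenase, at 0.89 times, the chemokine gene Cxcl12 at 0.90 times, the pyruvate dehydrogenase kinase gene Pdk4 at 0.87 times and the enolase gene Eno3 at 0.91 times. Gpd2 read 9.42, 9.47 and 9.39 in KO-labelled heads, against 9.65, 9.49 and 9.66 in WT-labelled heads, and it lies on chromosome 2. Pdk4 was below the brightness cut. The limma fit gave them adjusted p-values of 0.733 to 0.780, and the groups overlapped for Eno3 only. None of the 8 passed.

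Markers of other cells in the dissected tissue were read beside these small differences. All 6 neuronal markers had a lower mean in KO-labelled heads, with differences from −0.46 (Neurod1) to −0.12, with 0 past an adjusted p of 0.05 in limma. Their mean log2 signal per head lay between 9.59 and 10.01 in KO-labelled heads and between 9.83 and 10.05 in WT-labelled heads. For primitive red cells 5 of 6 markers were measured, all 5 with a lower mean in KO-labelled heads. Their mean signal per head lay between 11.02 and 11.12 in KO-labelled heads and between 11.13 and 11.26 in WT-labelled heads, narrowly without overlap. Among single genes, 6.99% of all were lower without overlap. In the other cell type lists this mean signal overlapped between the groups. Of the red cell markers, the embryonic globin gene Hbb-bh1 differed by −0.21 (limma adjusted p = 0.332). The other embryonic globin genes Hbb-y and Hba-x differed by −0.0005 and −0.02, and Alas2 and Klf1 by −0.13 and −0.18. Of the other marker lists, lower means were found for 5 of 7 markers of forebrain and midbrain (lowest Lhx2, −0.33) and 4 of 4 of hindbrain. For surface ectoderm it was 4 of 5, and for macrophages 3 of 5. For endothelium, and for cranial mesenchyme with neural crest, it was 2 of 6 each. None of these markers passed an adjusted p of 0.05 in limma, and 11402 of all 19938 genes had a lower mean. Of these markers, Neurod1, Lhx2, Pax6 and Lmx1b lie on chromosome 2, as Tasp1 does, and Pax6 and Lmx1b differed by −0.06 and −0.0034. The part of these cell types in the values of Pgk1, Slc2a3 and the rest was not tested.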

How the data were processed

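RNA of 6 heads was hybridised to 1 Affymetrix array each. The authors deposited log2 signals of 35556 probe sets for each array. Affymetrix Expression Console and MAS5 were used, per the submitters' processing notes, which give neither version nor role. Their background correction, scaling and probe summary are not stated in those notes. The values were used as deposited, so the log2 step and pseudocount foreseen for linear values were not needed.

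Of the probe sets, 21789 carried 1 gene symbol, 1621 several and 12146 were unlisted and stay unnamed. Each gene is its probe set with the highest mean, with no brightness filter. The groups were compared two-sided in limma 3.58.1 (R 4.3.3) by lmFit and eBayes, with a trend of variance on mean signal. Adjustment was by Benjamini-Hochberg over 19938 genes, at a threshold of 0.05. The code was tested on simulated data. The number of arrays limits the precision, and an exact permutation test cannot go below 0.1. The labels call the heads biological replicates.

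Genes given in every head were those with an unadjusted p under 0.05, the 2 largest differences of each role, and Hif1a, Epas1, Vegfa, Slc2a1, Pgk1 and Ldha; Gapdh was on that list too. P4ha1, Hk1 and genes named beside a single head were chosen after their values were seen. From the wider list, genes with an unadjusted p under 0.05 were named, and the members of its oxygen-sensing part that are named were picked by role. Members and lists were chosen with earlier results of these data known. Listed symbols no longer current were updated through RefSeq synonyms. Replicate numbers are shared by the groups, but same-numbered heads did not deviate together (correlations across genes from −0.27 to −0.11), so no block was used. Figures were drawn with matplotlib 3.10.9.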

Additional observations from a re-analysis of the deposited data

How the results depend on the processing

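Under all 17 alternatives at the same threshold, 0 of the 29 genes passed, and the smallest adjusted p of any of them in any limma or other fit was 0.441. The fit with the 40% brightness filter held 26 of the 29, without Aldoc, Car9 and Adm. With the chosen settings 1 of them, Pgk1, had an unadjusted p under 0.05, and its difference lay between −0.14 and −0.099 throughout, with a p above 0.05 only without a mean-variance trend (0.065). Under single alternatives an unadjusted p under 0.05 was also reached by Aldoc (0.045 with quantile normalization, 0.024 with array weights, 0.032 without KO 3), Pdk1 (0.017 without WT 3) and Ndrg1 (0.042 without KO 1). Over all genes, 2 passed in limma; the count was 1 with quantile normalization, with median centring and with the replicate block, 5 with array weights, and 0 with 64 added on the linear scale, the 40% brightness filter, no trend, an ordinary linear model or Xist signal as a covariate. It was 9 at an adjusted p of 0.1 and 1252 at an unadjusted p of 0.05, and ran from 0 to 11 with a head left out (11 without KO 1). No paired relation showed: 0 of the 6 heads correlated best with the head of its own number, and the replicate block changed no call among the 29 genes.

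The median of the other HIF targets was −0.039 with median centring, −0.038 with the brightness filter (which leaves out dim genes) and −0.034 with Xist as a covariate, and ran from −0.034 to 0.0064 with a head left out. Median centring moved the medians of the enzymes and of all genes too, to −0.034 and −0.040. The enzymes' median ran from −0.029 to 0.026 with a head left out. The enzymes' median minus that of the other targets was 0.032 with the brightness filter and ran from −0.035 to 0.036 with a head left out. No setting shifted the median of all genes by as much as 0.1.

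Of the 29 genes, 14 kept their sign in every fit that held them. Xist was high in WT 2 alone, so the fit with Xist as a covariate is close to leaving out that head. The Epas1 difference, for example, was −0.093 with Xist and −0.092 without WT 2. With all heads, the sign changed for Pfkp (0.0038 with array weights, 0.048 with Xist), Pgam1 (0.0076 with quantile normalization, 0.010 with the mean of its probe sets), Ldhb (−0.0024 with median centring, −0.028 with the mean of probe sets, −0.038 with Xist), Bnip3 (−0.023 with Xist), Car9 (−0.012 with quantile normalization and with median centring, −0.045 with Xist) and P4ha2 (−0.014 with quantile normalization, −0.012 with median centring). With a head left out it changed for 15 genes, whose ranges were −0.097 to 0.0012 (Hk1), −0.052 to 0.13 (Hk2), −0.10 to 0.12 (Pfkp), −0.032 to 0.034 (Aldoa), −0.014 to 0.059 (Tpi1), −0.044 to 0.025 (Pgam1), −0.036 to 0.073 (Ldhb), −0.14 to 0.044 (Slc2a3), −0.020 to 0.094 (Bnip3), −0.041 to 0.050 (Car9), −0.11 to 0.010 (Ankrd37), −0.033 to 0.0064 (Egln1), −0.0063 to 0.15 (Adm), −0.017 to 0.13 (P4ha1) and −0.081 to 0.070 (P4ha2). The cause was not tested. With 3 heads a group, differences larger than 1.2-fold also failed to pass, such as that of Neurod1, at a ratio of 0.73 (limma adjusted p = 0.332). The smallest difference that these arrays could detect was not measured.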
